A study of Mus musculus with 2 samples.

Results

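The 10 genes described here are the MHC class I heavy chain genes H2-K1, H2-D1, H2-Q4, H2-Q6, H2-Q7, H2-T22, H2-T23 and H2-M3, the light chain gene B2m, and Nlrc5. They were chosen by symbol, matched to Ensembl gene identifiers with the version ignored, and all 10 were found in both gene tables among 43346 Ensembl gene entries. The study measured polyadenylated RNA by single-end sequencing. The cells were CH12.LX, a mouse line derived from a B-cell lymphoma that grows without limit in culture. The labels give its strain as B10.H-2aH-4bp/Wts and its sex as female, and name no treatment, time or second condition. There are 2 libraries, biological replicates 1 and 2, from separate biosamples of this 1 line, so no comparison between conditions exists.

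A class I molecule is a heavy chain that spans the membrane, or is anchored to it, paired with the small soluble light chain beta-2 microglobulin. In the mouse the classical molecules, H2-K, H2-D and in some haplotypes H2-L, present peptides made in the cell to CD8+ T cells. Genes of the Q, T and M regions encode non-classical molecules with narrower tasks. Nlrc5 is a transactivator that has no DNA-binding domain of its own and acts with RFX, CREB/ATF and NF-Y proteins bound at class I promoters.

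The promoters are shown first because 5 of the heavy chain genes share a block of sequence there. RefSeq windows of 300 bases, from 250 before to 50 after the start of the gene on build GRCm38.p6 (strain C57BL/6J), were found for 9 of the 10 genes, all but Nlrc5; H2-K1 has 2, and the first listed was used. Motifs were searched on both strands. The kappa B core GGGATTNCC, known as the enhancer A site of class I genes, was in 5 of the 9 windows and in 0.939% of all 32817 promoter windows. The interferon response core GTTTCACTT was in 7 of the 9, and in 0.396% of all windows. The kappa B core was searched as a known class I site, and windows of genes that are near copies are not independent. How far the choice of the letters GTTTCACTT favours class I windows was not tested. These shares are therefore descriptions and have no test. H2-K1, H2-D1, H2-Q4, H2-Q6 and H2-Q7 held both, next to each other and in the same order. Their stretches run 5′ to 3′ on the strand of the gene, from the first base of the kappa B core to the last base of the interferon response core, with both motifs in capitals:
H2-K1, chr17:34000430-34000457, minus strand: GGGATTCCCcatctccacaGTTTCACTT
H2-D1, chr17:35262924-35262951, plus strand: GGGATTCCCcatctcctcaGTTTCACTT
H2-Q4, chr17:35379444-35379471, plus strand: GGGATTTCCcatctccccaGTTTCACTT
H2-Q6, chr17:35424678-35424705, plus strand: GGGATTCCCcatctccccaGTTTCACTT
H2-Q7, chr17:35439023-35439049, plus strand: GGGATTCCCatctccccaGTTTCACTT

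The stretch began 110 bases before the RefSeq start in H2-K1 and 170, 173, 172 and 132 bases before it in H2-D1, H2-Q4, H2-Q6 and H2-Q7. It was 28 bases long in 4 of the genes and 27 in H2-Q7. In H2-D1 it lies within exon 1 of the longer transcript H2-D1-202 of the GENCODE annotation. Both motifs are in this block in the classical genes and in all 3 Q genes. How the block relates to the levels of these genes, given below, was not tested.

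Longer stretches of 5 promoters show how the remaining motifs are arranged. Capitals mark the kappa B core, the interferon response core, the interferon response element (GAAA, any 2 bases, GAAA), the letters TGATGAC of the X2 box (the CREB/ATF site) and the letters CCAAT of the Y box (the NF-Y site), read on either strand, so a Y box on the other strand appears as ATTGG. The interferon response core and element overlap in H2-T22:
H2-K1, chr17:34000355-34000461, minus strand: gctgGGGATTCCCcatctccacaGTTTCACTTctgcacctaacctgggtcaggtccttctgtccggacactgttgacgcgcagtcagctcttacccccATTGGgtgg
H2-Q6, chr17:35424674-35424803, plus strand: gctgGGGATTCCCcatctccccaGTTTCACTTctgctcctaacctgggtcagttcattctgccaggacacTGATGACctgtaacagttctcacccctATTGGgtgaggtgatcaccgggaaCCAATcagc
H2-T22, chr17:36042797-36042947, minus strand: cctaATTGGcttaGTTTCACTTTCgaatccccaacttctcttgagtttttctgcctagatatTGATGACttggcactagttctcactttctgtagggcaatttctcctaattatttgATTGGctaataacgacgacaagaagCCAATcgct
H2-M3, chr17:37270101-37270219, plus strand: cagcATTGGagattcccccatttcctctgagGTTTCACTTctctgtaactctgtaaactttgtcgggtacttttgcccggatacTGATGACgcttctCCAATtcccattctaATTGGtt
B2m, chr2:122147544-122147642, plus strand: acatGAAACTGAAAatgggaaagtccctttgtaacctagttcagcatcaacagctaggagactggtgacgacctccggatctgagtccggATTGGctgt

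H2-T22 and H2-M3 held the interferon response core without the kappa B core. The interferon response element was in H2-T22, H2-T23 and B2m, 3 of the 9, against 3.43% of all windows. H2-K1, H2-D1 and the Q genes had no match to this element. TGATGAC was in 6 of the 9 (H2-D1, H2-Q4, H2-Q6, H2-Q7, H2-T22 and H2-M3), against 3.23% of all windows, and CCAAT in all 9, against 37.4%. The letters TATAAA were in 4 of the 9 (H2-K1, H2-D1, H2-Q4 and B2m), against 13.6%. Counted from the RefSeq start, these letters began at -26 in H2-D1, -28 in H2-Q4 and -152 in B2m. In H2-K1 they began at 35, after the start. A match describes these letters in the reference strain, and a window without a match says nothing of the factor. The alleles of CH12.LX were not compared with the reference here. That limit holds for all class I values that follow: reads of a line labelled H-2a were assigned to mm10 sequence, the coding identities and shared subsequences are those of the reference, and how allele differences affect the level of any class I gene, H2-K1 and H2-D1 included, was not tested.

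The coding sequences are also much alike, which bears on every level below because a read from 1 gene can fit another. Windows of 60 coding bases were compared in the leading protein-coding transcripts of the classical and Q genes, and had to align in each. The H2-Q7 transcript used, H2-Q7-204, has only 645 coding bases, so parts of the longer coding sequences could not enter. Of the 142 windows compared, the most alike lay in exon 3. It is shown on the coding strand with each base that differs from H2-K1 in capitals:
H2-K1, chr17:33999401-33999460, minus strand: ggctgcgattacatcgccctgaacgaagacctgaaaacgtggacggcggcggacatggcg
H2-D1, chr17:35263925-35263984, plus strand: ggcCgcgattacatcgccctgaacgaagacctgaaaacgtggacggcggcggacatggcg
H2-Q4, chr17:35380447-35380506, plus strand: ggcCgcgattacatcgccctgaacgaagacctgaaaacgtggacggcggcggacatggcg
H2-Q6, chr17:35425657-35425716, plus strand: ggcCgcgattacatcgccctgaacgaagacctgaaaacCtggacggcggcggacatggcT
H2-Q7, chr17:35439995-35440054, plus strand: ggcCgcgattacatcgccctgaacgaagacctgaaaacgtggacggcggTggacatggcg

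Here H2-D1 and H2-Q4 differed from H2-K1 at 1 base, H2-Q7 at 2 and H2-Q6 at 3. The least alike window began at the start codon in exon 1, which encodes the leader peptide, shown in the same way:
H2-K1, chr17:34000198-34000257, minus strand: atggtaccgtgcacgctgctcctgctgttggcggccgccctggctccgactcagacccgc
H2-D1, chr17:35263123-35263182, plus strand: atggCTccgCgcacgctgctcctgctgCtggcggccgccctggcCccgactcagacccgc
H2-Q4, chr17:35379644-35379703, plus strand: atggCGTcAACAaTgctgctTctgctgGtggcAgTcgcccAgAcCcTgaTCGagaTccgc
H2-Q6, chr17:35424877-35424936, plus strand: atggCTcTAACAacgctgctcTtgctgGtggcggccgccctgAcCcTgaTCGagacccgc
H2-Q7, chr17:35439221-35439280, plus strand: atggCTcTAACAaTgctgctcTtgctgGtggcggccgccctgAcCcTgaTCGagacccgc

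In this window H2-D1 differed from H2-K1 at 5 bases, H2-Q6 at 15, H2-Q7 at 16 and H2-Q4 at 20. Over the aligned coding sequence, identity to H2-K1 was 91.5% in H2-D1, 90.2% in H2-Q4, 88.3% in H2-Q6 and 85.9% in H2-Q7. It was 82.9% in H2-T23, 74.7% in H2-T22 and 73.8% in H2-M3. The H2-Q7 value covers 645 aligned bases and the others 978 to 1077, so it does not describe the same part of the gene. The longest run of identical coding bases in any pair was 145 bases, in exon 4 of both H2-D1 and H2-T23. H2-T22 and H2-T23 shared 131, H2-D1 and H2-Q6 130, and H2-K1 and H2-D1 91. With the short H2-Q7-204, H2-Q7 and H2-M3 shared no run over 16 bases, and every longest run of H2-Q7 lay in its exon 2 or 3. The other heavy chain genes shared 32 to 44 bases with H2-M3, in exon 4 of H2-M3.

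The libraries held 22986749 and 25701557 expected counts on Ensembl entries. Expected counts are estimated reads per gene, not whole where a read fits several genes, and TPM are these reads per base of transcript, scaled to the same sum in each library. Of the cell type markers, all 6 B cell genes were detected at 1 TPM or more in both libraries and summed to 1272 and 1393 TPM in replicates 1 and 2. The summed levels of 6 T cell, 5 myeloid, 3 erythroid, 3 NK cell and 3 fibroblast markers were between 0.33 and 6.37 TPM in each library. The NK cell markers Ncr1 and Klrb1c and the myeloid marker Csf3r were at 0 in both. The labelled cell type thus matched its markers.

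All 10 genes were detected, and the light chain was the most abundant. B2m (ENSMUSG00000060802, chr2:122147686-122153083, plus strand) stood at 1730 TPM in replicate 1 and 1412 TPM in replicate 2, a mean of 1571 ± 225 (SD, n = 2). Its mean was higher than that of 99.7% of protein-coding genes. Replicate 1 was the higher library, and both values exceeded those of every heavy chain gene.

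The classical genes followed. H2-K1 (ENSMUSG00000061232, chr17:33996017-34000347, minus strand), the classical gene at the centromeric end of the complex, was at 995 and 915 TPM in replicates 1 and 2 (955 ± 56.4, SD, n = 2). H2-D1 (ENSMUSG00000073411, chr17:35262730-35267499, plus strand), the other classical gene measured here, was at 741 and 646 TPM (693 ± 66.9, SD, n = 2). The ranges of the 2 genes did not overlap, and H2-K1 was 1.34 and 1.42 times H2-D1 in the respective libraries. They ranked above 99.5% and 99.3% of protein-coding genes. H2-L, the additional classical gene of some haplotypes, had no entry matched by name and was not analysed here. Whether this line carries H2-L was not tested. How its reads would then bear on the H2-D1 level, the ratio of H2-K1 to H2-D1 and the classical share below was not tested either.

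The 3 Q genes came next, at a level several times lower. H2-Q4 (ENSMUSG00000035929, chr17:35379617-35385290, plus strand) was at 137 and 112 TPM (124 ± 17.4, SD, n = 2). H2-Q6 (ENSMUSG00000073409, chr17:35424850-35430055, plus strand) was at 110 and 90.1 TPM (99.95 ± 13.9, SD, n = 2). H2-Q7 (ENSMUSG00000060550, chr17:35439155-35443773, plus strand), which encodes a Qa-2 antigen held in the membrane by a lipid anchor, was at 94.0 and 77.6 TPM (85.8 ± 11.6, SD, n = 2). Replicate 1 was the higher library for each. The ranges of H2-Q6 and H2-Q7 over the libraries overlapped, although H2-Q6 was above H2-Q7 within each library. The range of H2-Q4 lay just above both.

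The T and M region genes were the lowest of the heavy chains. H2-T23 (ENSMUSG00000067212, chr17:36029773-36032855, minus strand) encodes Qa-1, which shows leader peptides of other class I chains to the CD94/NKG2 receptors of NK cells. It was at 58.0 TPM in replicate 1 and 30.9 in replicate 2 (44.5 ± 19.2, SD, n = 2), the widest relative spread among the 10. H2-M3 (ENSMUSG00000016206, chr17:37270220-37274484, plus strand), which presents formylated peptides of bacteria, was at 38.0 and 33.9 TPM (35.9 ± 2.88, SD, n = 2). H2-T22 (ENSMUSG00000056116, chr17:36037128-36042747, minus strand), a ligand of some gamma delta T cells, was at 15.5 and 19.3 TPM (17.4 ± 2.70, SD, n = 2), and was the 1 gene of the 10 with the higher TPM in replicate 2.

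Nlrc5 (ENSMUSG00000074151, chr8:94434356-94527272, plus strand) was at 50.4 and 49.4 TPM (49.9 ± 0.707, SD, n = 2), above 86.9% of protein-coding genes. Its range lay within that of H2-T23. Of the 9 pairs of neighbours in the order from B2m to H2-T22, 6 did not overlap between libraries; H2-Q6 with H2-Q7, Nlrc5 with H2-T23, and H2-T23 with H2-M3 did. Within each library H2-Q6 was above H2-Q7, while Nlrc5 with H2-T23, and H2-T23 with H2-M3, changed order between libraries. With 2 libraries, non-overlap is a description and has no test.

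**Figure D1:**
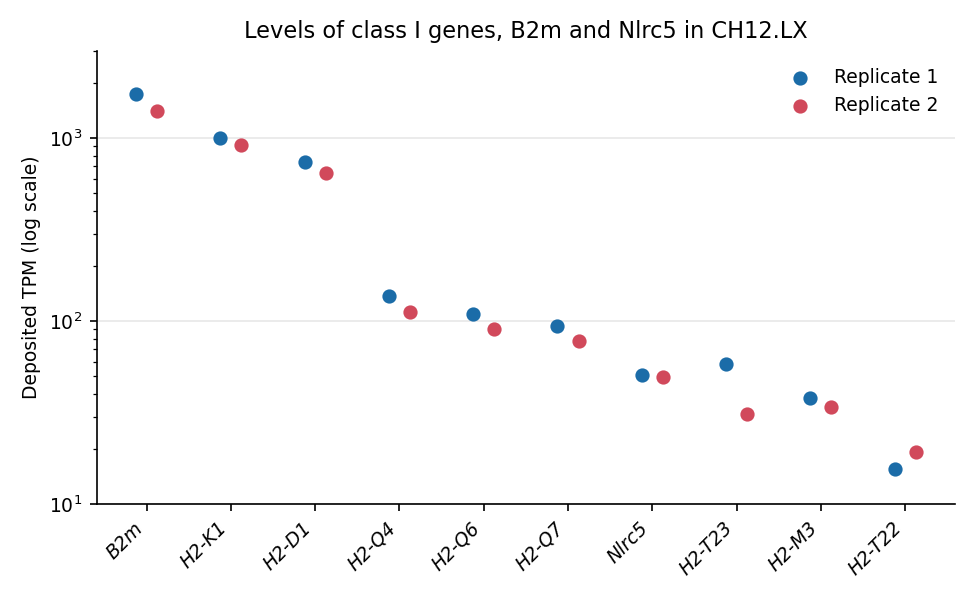
TPM of the 10 genes on a log axis, in order of their mean, with 1 point for each library (blue replicate 1, red replicate 2). B2m, H2-K1 and H2-D1 lie between 646 and 1730 TPM, the Q genes between 77.6 and 137, and H2-T22 alone has the higher value in replicate 2.

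Classical against non-classical, the lowest classical value exceeded the highest non-classical value 5.42 times in replicate 1 and 5.77 times in replicate 2. H2-K1 and H2-D1 together made 1736 and 1561 TPM, and the 6 non-classical genes 452 and 364 TPM. The classical genes thus held 79.3% and 81.1% of the heavy chain TPM (80.2% ± 1.24, SD, n = 2). By expected counts, which are not corrected for length, they held 73.8% of 52076 in replicate 1 (Wilson 95% interval 73.5 to 74.2, counting error only) and 76.0% of 53186 in replicate 2 (75.7 to 76.4). The 3 Q genes made 75.3% and 76.9% of the non-classical TPM.

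By summed gene TPM, the light chain was less abundant than the 8 heavy chain genes together. B2m was 0.791 and 0.733 of the summed heavy chain TPM in replicates 1 and 2 (0.762 ± 0.0406, SD, n = 2), and 0.997 and 0.904 of the classical TPM alone. On the scale of expected counts the ratio to all heavy chains averaged 0.421, since B2m has the shortest effective length of the 10 genes. The heavy chain and classical sums take in every annotated model, among them H2-D1-203, of 391 bases, at 286 and 239 TPM in replicates 1 and 2. The ratios without short or retained intron models were not computed. These are RNA levels, and the amounts of protein were not measured.

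The listed class I genes left out of the 10 were a minor share of the TPM summed over listed class I genes. Sequences off the list, such as the pseudogene H2-T-ps at 54.8 and 35.3 TPM, are outside this sum. Of 27 other class I genes of the complex on the list, 21 were matched by name; H2-Q8, H2-Q9, H2-T5, H2-T9 and H2-T13 were, like H2-L, not analysed here. The 21 summed to 215 and 183 TPM, so the 8 heavy chain genes made 91.1% and 91.3% of the TPM summed over the 8 and these 21. Over the same genes the classical share was 72.3% and 74.0%. Of the 21, 10 were detected at 1 TPM in both libraries.

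Only 3 of these 21 had a higher mean than H2-T22, the lowest of the 8. H2-Q10, known for a secreted class I molecule made in liver, was at 64.9 and 44.4 TPM. H2-Q5 was at 64.4 and 47.7 TPM, and H2-T10, the close relative of H2-T22, at 32.4 and 33.7 TPM; the annotation calls both polymorphic pseudogenes. H2-Q10 and H2-Q5 were thus listed at levels above H2-M3 in both libraries. Just below H2-T22 came H2-Q2 at 12.5 and 17.9 TPM and H2-K2 at 16.4 and 11.04 TPM, followed by H2-Q1 at 7.88 and 10.33 TPM. H2-M1, H2-M9, H2-M11, H2-M10.3, H2-M10.4 and H2-M10.5 had 0 counts in both libraries. An approximate limit from counting error alone, 3 counts over both libraries, was 0.0898 TPM or less for each of the 6. The deposited upper bounds of the posterior TPM, whose level is not given in the sources used here, reached 0.267 (H2-M10.4 in replicate 1).

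**Figure D2:**
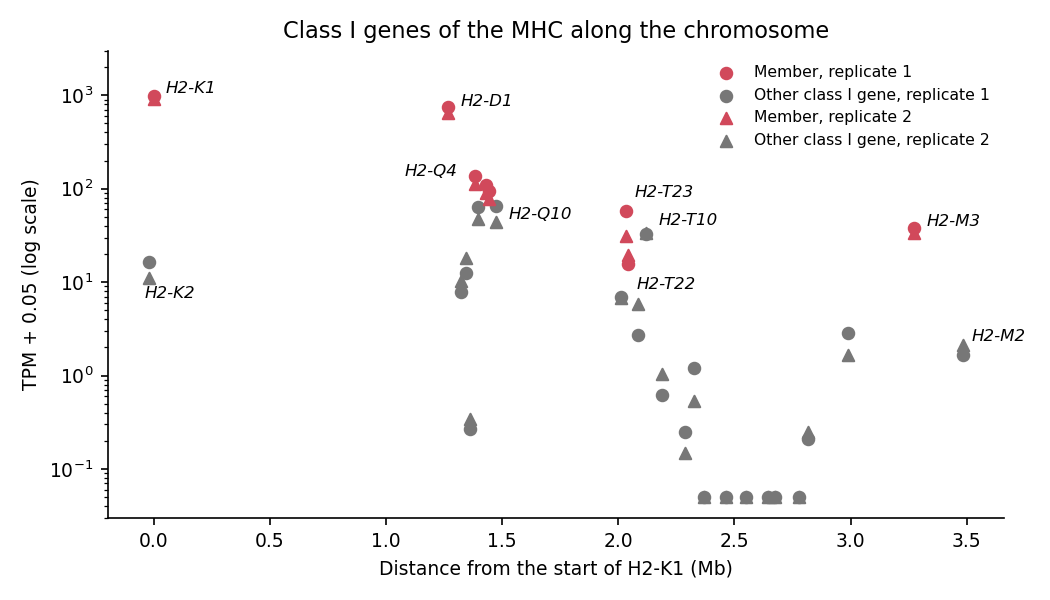
TPM plus 0.05 on a log axis against the distance in Mb from the start of H2-K1, for the 8 heavy chain genes (red) and 21 other class I genes (grey), circles for replicate 1 and triangles for replicate 2. H2-K1 and H2-D1 stand highest, the Q genes follow near H2-D1, and 6 genes of the M region sit at the offset, meaning 0 TPM, while H2-M3, at 3.27 Mb, is at 33.9 and 38.0 TPM.

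How surely reads could be assigned differed between the genes. The deposited posterior standard deviation of a count, as a percent of its posterior mean, describes how far the split of shared reads is uncertain. It was 0 for B2m and Nlrc5, at most 0.351% for H2-M3, H2-D1 and H2-K1, and between 0.811% and 2.03% for the Q genes and H2-T23. H2-T22 had 6.21% in replicate 1 and 5.04% in replicate 2, and was the 1 gene above 5%.

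Sequence shared with other genes was compared through all subsequences of 36 bases in the annotated transcripts of each gene. In B2m and Nlrc5 100% of them occurred in no other gene, and in H2-M3 96.9%. In H2-K1 81.2% were unique, with 9.67% also found in H2-D1. In H2-D1 78.2% were unique, with 10.96% also found in H2-K1. H2-T23 had 77.7% unique and shared 10.48% with the pseudogene H2-T-ps, itself listed at 54.8 and 35.3 TPM.

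The Q genes and H2-T22 were less separable. H2-Q7 had 65.2% unique subsequences and shared 19.1% with H2-Q10 and 13.4% with H2-Q5. H2-Q6 had 54.0% and shared 20.0% with H2-Q4 and 17.3% with H2-Q7. H2-Q4 had 52.3%, and 16.4% were shared with Gm11131, a gene annotated antisense to it at 1.13 and 1.03 TPM. H2-T22 had 36.5%, with 42.6% also in H2-T10 and 27.4% in the antisense gene A930015D03Rik, listed at 6.17 and 6.97 TPM. Whether the counting used strand is not given in the sources used here, so reads of a gene and its antisense partner cannot be told apart. The level of H2-T22 relative to H2-T10 and the levels of the Q genes relative to each other, to H2-Q5 and to H2-Q10 are uncertain to that extent.

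**Figure D3:**
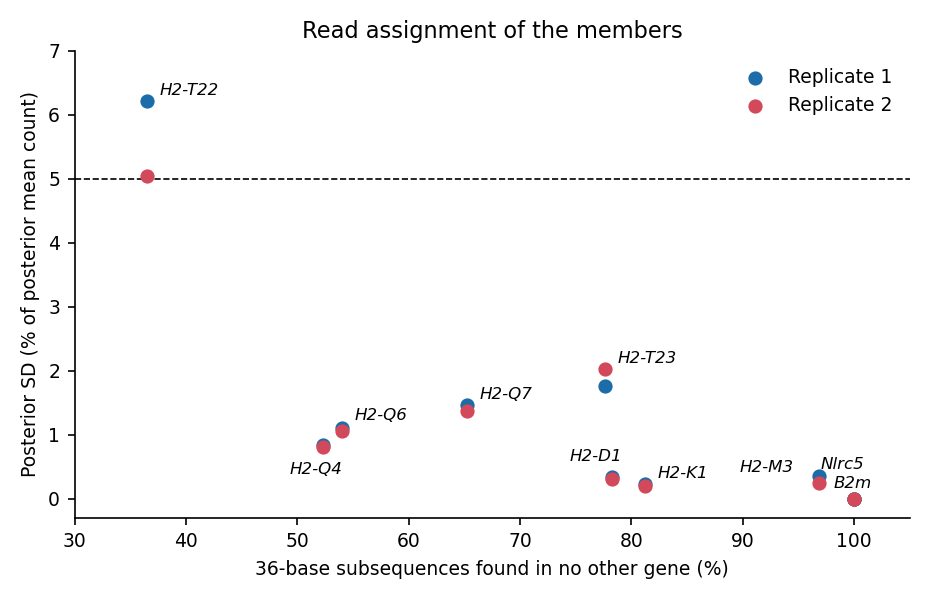
Posterior standard deviation of the count, in percent of its posterior mean, against the percent of 36-base subsequences found in no other gene, with blue for replicate 1 and red for replicate 2. H2-T22, with 36.5% unique subsequences, lies above the dashed line at 5%, and B2m and Nlrc5 lie together at 100% and 0.

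The libraries were then compared gene by gene, as a measure of how far levels differ between 2 biosamples of 1 line. For each gene an exact binomial test, two-sided, set its counts against the library sizes scaled by the trimmed mean of M values (TMM), adjusted by Benjamini-Hochberg over 15340 genes. The test holds counting error only and compares 2 libraries, not conditions. By it 8 of the 10 genes differed at an adjusted p of 0.05, 6 lower and 2 higher in replicate 2. Of all genes tested 30.6% differed, 15.9% lower and 14.6% higher; of the 7050 with a mean of 500 counts or more, a range that holds all 10 genes, 46.9% did, 22.6% lower and 24.3% higher. The median log2 ratio of the 10 was -0.15, beside 0.01 over those 7050 genes.

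A negative binomial exact test with the dispersion that edgeR estimates from both libraries as 1 group gave a biological coefficient of variation of 19.8%. It called 0 of the 10 genes, 0 of them at an unadjusted p under 0.05, and 2.54% of all genes, 1.86% lower and 0.671% higher in replicate 2. Each side of that test is 1 library, and the difference under test is part of the spread it uses, so the 0 does not show that the levels were alike. Fewer cells that express a gene and less RNA per cell cannot be told apart in these bulk samples.

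H2-T23 differed most. It had 1533 expected counts in replicate 1 and 981 in replicate 2, although replicate 2 was the deeper library. Its log2 ratio of replicate 2 over replicate 1 was -0.78 (exact binomial test, adjusted p = 2.52e-39), larger in size than that of 98.6% of the 7050 genes. The deposited interval of its posterior TPM, whose level is not given in the sources used here, ran from 51.0 to 58.1 in the first library and from 27.0 to 31.9 in the second, without overlap.

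B2m, the most abundant of the 10, had 23244 and 21091 expected counts, a log2 ratio of -0.28 (adjusted p = 7.36e-89 by the exact binomial test). The ratio of H2-Q6 was -0.27, from 3678 and 3357 counts, and that of H2-Q4 was -0.19, from 4175 and 4022. H2-Q7 had -0.15 and H2-D1 -0.11. Adjusted p-values of these 4 genes by the exact binomial test ranged from 1.21e-13 to 3.31e-04. In size, the ratios of B2m and H2-Q6 exceeded those of 87.3% and 86.3% of the 7050 genes, and the ratio of H2-D1 those of 49.9%.

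H2-T22 went the other way, from 465 to 656 expected counts, a log2 ratio of 0.36 (exact binomial test, adjusted p = 2.38e-04). Its deposited intervals, 12.6 to 17.0 TPM in replicate 1 and 16.3 to 20.9 in replicate 2, overlapped. Nlrc5 had 2931 and 3429 counts and a log2 ratio of 0.09 (exact binomial test, adjusted p = 0.0462). That call was lost with library totals as the scale (adjusted p = 0.179 by the same exact test), and also with DESeq2 size factors, where it was 0.0564. H2-K1 had a ratio of -0.03 (exact binomial test, adjusted p = 0.0577), which passed the threshold with library totals at 1.92e-04 and with DESeq2 size factors at 0.0334. H2-M3 had -0.15 (adjusted p = 0.0929 by the exact binomial test, and 0.0443 with library totals).

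**Figure D4:**
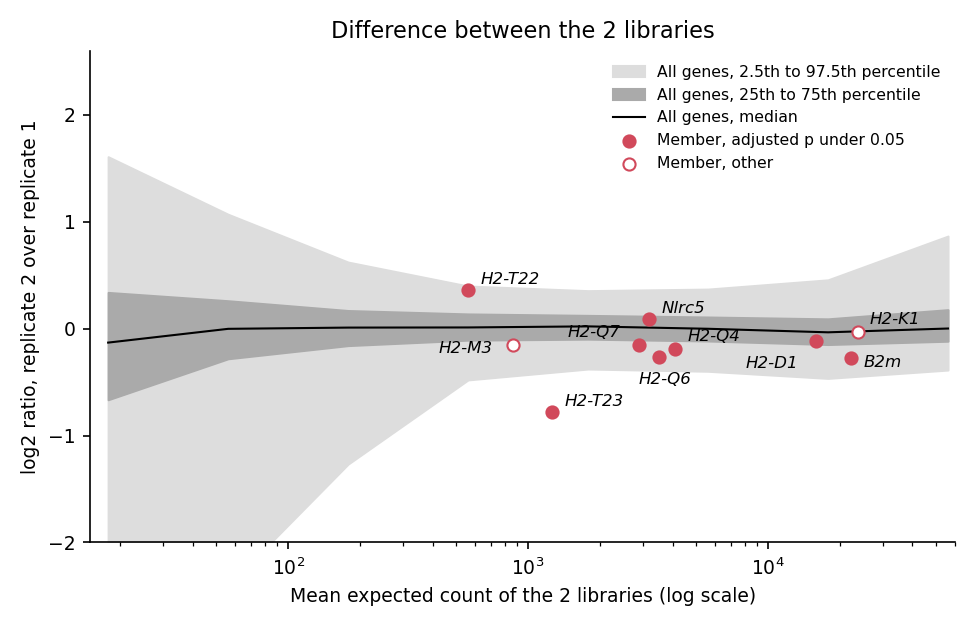
Log2 ratio of replicate 2 over replicate 1 against the mean expected count (log axis), with the percentiles of all genes in bins of count as grey bands and the 10 genes as red points, filled where the exact binomial test had an adjusted p under 0.05. H2-T23, at -0.78, lies below the band that holds the middle 95% of genes, and the other 9 genes lie within it.

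TPM and counts moved by different amounts in some genes because the effective length of a gene, a mean over its transcripts weighted by their abundance, differed between libraries. For H2-Q7 the share of library counts in replicate 2 was 0.884 of that in replicate 1 and the TPM 0.825, while the effective length was 1.08 times as long. For Nlrc5 the share of library counts was 1.05 times and the TPM 0.980 of replicate 1, with an effective length 1.07 times as long. For B2m, H2-Q6 and H2-M3 the effective length was the same in both libraries.

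The transcripts behind these lengths were 40 annotated models of the 10 genes, and a protein-coding transcript led by mean share in 9 of the 10. B2m and H2-M3 have 1 model each. H2-Q6-202 held 100% of H2-Q6 in both libraries. H2-K1-205 held 83.4% and 86.6% of the H2-K1 TPM in replicates 1 and 2. Of H2-D1, the full-length H2-D1-202 held 54.7% and 58.5% of TPM, and H2-D1-203, a model of 391 bases, held 38.6% and 37.1%. By counts that short model held 10.48% and 9.58%, so its share of TPM rests on few bases.

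H2-T23 and H2-Q4 each changed in transcript makeup between libraries. H2-T23-201, the protein-coding transcript, had 1150 expected counts in replicate 1 and 594 in replicate 2, with posterior standard deviations of 35.1 and 27.0. The retained intron model H2-T23-202 had 383 and 387 counts. The lower level of H2-T23 in replicate 2 thus lay in the protein-coding transcript, whose share of the gene's TPM was 84.5% and 73.6%. Of H2-Q4, the protein-coding H2-Q4-201 had 3373 and 2601 counts and the retained intron model H2-Q4-202 803 and 1421, so that the latter's share of TPM was 14.03% in replicate 1 and 27.3% in replicate 2.

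The share of a gene's counts on retained intron models was set against other genes. In 3081 genes with such a model and 500 counts or more in each library, the median share was 2.63% and 2.62%. Replicate 2 had the higher share in 46.7% of them and the lower in 49.9%. Among the 6 of the 10 genes in this set, 3 had the higher share in replicate 2, namely H2-Q4 by 16.1 percentage points, H2-T23 by 14.5 and H2-Q7 by 9.47. These differences were larger than those of 99.6%, 99.4% and 98.3% of the 3081 genes. The share fell by 6.42 points in Nlrc5, by 2.21 in H2-K1 and by 0.41 in H2-D1, and none of the 6 differences has a test. H2-T22, with fewer than 500 counts in replicate 1, was outside the set and had 20.01% and 25.1% of its counts on such a model. Gm11131 overlaps H2-Q4 on the opposite strand, and its part in the H2-Q4 split was not tested.

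H2-Q7 and H2-T22 were split among several models in a way that the data fix poorly. The protein-coding H2-Q7-204 held 25.1% and 31.8% of the H2-Q7 TPM, H2-Q7-201 26.8% and 9.13%, H2-Q7-203 17.1% and 5.09%, and H2-Q7-202 3.12% and 17.5%. The posterior standard deviations of the H2-Q7-201 count, 112 and 109 reads, compare with 564 and 176 expected counts. The retained intron model H2-Q7-206 held 21.1% and 26.7% of TPM, and 46.7% and 54.7% of the gene's counts. H2-T22-202 held 61.7% and 81.8% of the H2-T22 TPM, but 43.6% and 66.2% when taken from the posterior mean TPM.

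Nlrc5 was the exception, by TPM, in the lead of protein-coding transcripts; by posterior mean TPM all 10 genes were led by one, and by expected counts the exception was H2-Q7, where H2-Q7-206 led. The retained intron model Nlrc5-203, of 1727 bases, held 48.0% and 36.9% of its TPM, and the full-length Nlrc5-201, of 6945 bases, 38.2% and 44.1%. By counts Nlrc5-201 held 74.5% and 80.0%. Replicate 2 taken alone had Nlrc5-201 in the lead by TPM as well.

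**Figure D5:**
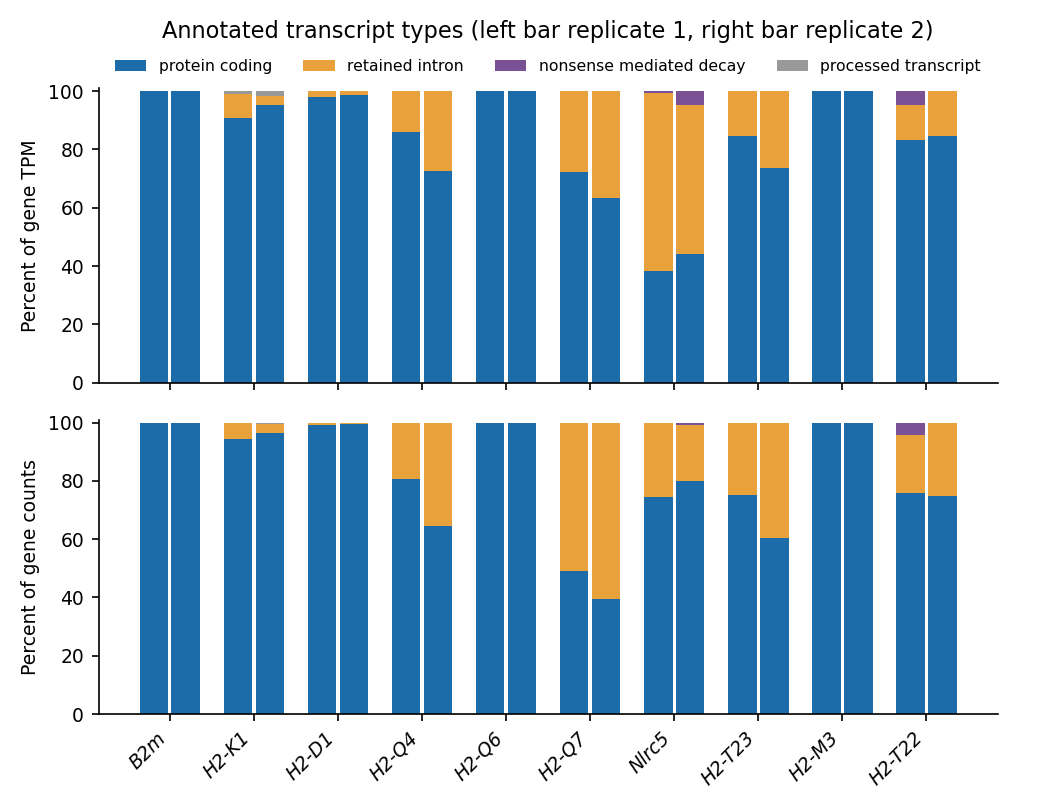
Percent of each gene's TPM (upper panel) and of its expected counts (lower panel) on annotated transcript types, with the left bar of each pair replicate 1 and the right bar replicate 2. The retained intron part of H2-Q4, H2-Q7, H2-T23 and H2-T22 is larger in replicate 2 in both panels, and that of Nlrc5 is larger by TPM than by counts.

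The genes that supply and load class I peptides were all expressed. All 13 on the list were detected, led by Calr, a chaperone of newly made heavy chains, at 1247 and 845 TPM. Psme2 and Psme1, the subunits of the proteasome activator PA28, were at 511 and 563 TPM and at 492 and 544 TPM. Of the 13, 2 differed higher and 5 lower in replicate 2 by the exact binomial test, beside 30.6% of all genes. All 13 had a mean of 500 counts or more, and of all genes in that range 46.9% differed, 22.6% lower and 24.3% higher. The median log2 ratio of the 13 was -0.06. Calr was among the lower genes, at a log2 ratio of counts of -0.28, and so was Psme2, at -0.20, although its TPM was the higher in replicate 2. The negative binomial test called 0 of them.

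The partners of Nlrc5 at class I promoters were also all detected, 8 of 8. The CREB family member Atf1 was at 86.0 and 97.4 TPM, and the NF-Y subunits Nfya and Nfyc were at 38.9 and 32.5 TPM and at 33.6 and 37.0 TPM. Of the 8, 1 was higher in replicate 2 and none lower by the exact binomial test, beside 14.6% and 15.9% of all genes. Of the interferon and NF-kB factors known to act on class I genes, 8 of 8 were detected. Nfkb1 was at 208 and 247 TPM, and the NF-kB subunit Rela at 29.4 and 34.04 TPM. Of these 8, 2 were higher in replicate 2 and none lower, beside the same shares of all genes. B2m and 5 heavy chain genes were lower in replicate 2, and all 6 B cell markers were higher there by the same exact test, beside 22.6% lower and 24.3% higher among genes with a mean of 500 counts or more. The negative binomial test called 0 of the 10 genes and 0 of the 6 markers. The part of the marker difference in these results was not tested.

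Of 11 class I-like genes outside the complex, 3 were detected. Ulbp1, a ligand of the NKG2D receptor, was at 36.2 and 44.9 TPM, a range that overlaps that of H2-M3. Cd1d1, which presents lipids to NKT cells, was at 5.21 and 5.18 TPM, and Mr1, which presents vitamin metabolites to MAIT cells, at 4.72 and 5.59 TPM. Only 5 of the 11 had enough counts for the exact binomial test, and of these 1, Ulbp1, differed between the libraries. Of all genes tested 30.6% differed, and 46.9% of those with a mean of 500 counts or more, a range that holds Ulbp1. Cd1d2, Mill1 and Mill2 had 0 counts in both.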

How the data were processed

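Per the files deposited with each library, reads were aligned to assembly mm10 with annotation M4 and quantified for each library apart, without pooling. For the aligner and the quantification tool no name is given in the sources used here. The authors deposited expected counts, posterior mean counts with their standard deviation, TPM and FPKM for genes and transcripts, the percent of each gene's TPM on its transcripts, and interval bounds of the posterior TPM signal. Effective lengths of transcripts in the files are the length minus 40 bases.  

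From these, levels, shares and ratios were computed with Python 3.11.15 (pandas 2.3.3, scipy 1.17.1). Expected counts were rounded for tests. Genes with at least 10 counts over both libraries (15340) entered a two-sided exact binomial test with TMM sizes (edgeR 4.0.16, R 4.3.3), Benjamini-Hochberg adjusted (statsmodels 0.14.6); log2 ratios used a pseudocount of 0.5. The alternative was edgeR's negative binomial exact test; another used DESeq2 1.42.0 size factors. Entries without an Ensembl identifier stayed out of the tests. Detection means 1 TPM in both libraries. The depth of the 2 libraries, and their number, limit precision, and nothing in the files separates culture from library preparation.

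Names, types and positions came from GENCODE M21 on GRCm38, which matched 42462 of 43346 Ensembl entries and all 40 transcripts; 35 of these have the same length there. Subsequences, coding windows and identities were taken from its transcripts, and promoters from RefSeq GRCm38.p6. The members and all lists were chosen with earlier results of these data known. The text names the 10 genes, their transcripts of 10% or more, the 3 highest genes of each list, genes at 0 counts and any class I gene of the complex; H2-T-ps, Gm11131 and A930015D03Rik were named after their values were seen.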

Additional observations from a re-analysis of the deposited data

How the results depend on the processing

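Posterior mean TPM and FPKM left the classical share and the B2m ratio within their spread, and the count of detected genes at 10. The classical share was 74.9% by expected counts and 73.1% over the 8 heavy chain genes and the 21 other class I genes on the list, and the B2m ratio was 0.421 by expected counts. Leaving out either replicate gave shares of 79.3% to 81.1%, ratios of 0.733 to 0.791, 10 to 11 other class I genes detected, 10 of the 10 genes detected, and 9 to 10 genes led by a protein-coding transcript. The negative binomial exact test called 389 genes with TMM and 389 with DESeq2 size factors, where the binomial test called 4693. A posterior standard deviation over 2% held for 2 of the 10 genes (H2-T22 and H2-T23), and over 10% for 0. No log2 ratio of counts of the 10 genes changed direction under the alternatives run. By TPM, however, Nlrc5 was lower in replicate 2 (50.4 and 49.4 TPM in replicates 1 and 2), while its count ratio was higher there. Without a filter on counts, and with at least 50 counts, H2-K1 passed the threshold (exact binomial test, adjusted p = 0.0353 and 0.00802) and Nlrc5 did not (0.0864 and 0.0725). With subsequences of 75 bases the unique share of H2-T22 was 60.03% and that of H2-Q6 78.9%; with 41 bases, a length chosen after seeing the data, they were 40.2% and 58.3%. No paired analysis of conditions was possible because the 2 libraries form 1 group. The limits given for genes of the M region at 0 counts depend on depth.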
